A study of Mus musculus with 9 samples.

Results

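Gene expression was compared between lipid-loaded mouse hepatocytes that received osteocyte vesicles treated with an antagomir against miR-483-5p and hepatocytes that received the same kind of vesicles treated with a control antagomir. The comparison took 6 of the 9 RNA-seq libraries of the study, chosen by their treatment labels, with 3 libraries in each group, and covered all genes in the count tables. Every group used AML12, a hepatocyte line from mice transgenic for TGF-alpha, and every culture was loaded with free fatty acids. The group OCY-EV+ANTA, called ANTA below, received aged-osteocyte extracellular vesicles mixed beforehand with antagomir-483-5p for 30 min. The group OCY-EV+ANTA-NC, called ANTA-NC, received vesicles mixed with the control antagomir for the same time, and both groups received the vesicles at 2 µg/ml. The remaining 3 libraries, called Veh, came from cells given phosphate-buffered saline and are used here for the vehicle level of each gene. No group received vesicles without an antagomir or an antagomir without vesicles, so an action of the antagomir inside the vesicles and one of antagomir carried over into the cells cannot be told apart. For vesicle isolation the labels give both ultracentrifugation and ultrafiltration. Whether a group's libraries were separate cultures is not said, and p-values therefore reflect library-to-library spread alone, possibly of technical origin.

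Total counts ran from 17298814 to 18628603 in ANTA and from 18171471 to 19439679 in ANTA-NC. Expression is given as CPM, a count per mega-read of effective library size, and 11562 genes had enough counts to be tested. ANTA libraries stood apart on the first principal component (22.6% of the variance), with scores of 12.3 to 13.9 against -10.1 to -3.38 in ANTA-NC and Veh. On the second component the libraries numbered 1 in every group scored 9.17 to 12.7, against -9.74 to -2.89 in the rest. The hepatocyte label was borne out only in part. The hepatocyte transcription factor gene Hnf4a lay between 49.0 and 66.1 CPM and Nr1h4, the bile acid receptor gene, between 215 and 237 CPM, whereas the bile duct keratin gene Krt19 reached 2324 to 2866 CPM. Pck1, G6pc, Otc, Cyp3a11 and Serpina1a, all products of adult hepatocytes, had 0 counts in all 9 libraries, and only 14 of 36 listed hepatocyte genes could be tested. The floor of 3 counts that a 0 allows was 0.138 to 0.173 CPM, depending on the library, and refers to counting error alone. The osteocyte genes Sost and Dmp1, the Kupffer cell gene Clec4f and the stellate cell genes Lrat and Dcn also had 0 counts. Other members of these marker lists were present. Of the osteocyte list Runx2 lay at 89.4 to 105 CPM and Spp1 at 148 to 184 CPM. Of the macrophage list Cd14 lay at 23.3 to 28.3 CPM and Cd68 at 7.05 to 14.7 CPM. Of the stellate cell or fibroblast list Des, Pdgfra and Col1a1 reached at most 2.99, 2.93 and 2.42 CPM. In bulk RNA, fewer cells of a kind and less RNA per cell cannot be told apart.

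MicroRNAs pair with messenger RNAs mostly through a seed near their 5′ end and lower the level or translation of what they bind. An antagomir is a modified oligonucleotide complementary to a microRNA, meant to keep it from its targets. The gene of miR-483 lies in an intron of Igf2, and both arms of its hairpin give mature microRNAs with unrelated seeds. They are shown because the seed of the 5p arm, in capitals (bases 2 to 8), defines the sites searched for below. The sequences are those of RefSeq on GRCm38.p6, at chr7:142654968-142654989 (minus strand) for the 5p arm and chr7:142654932-142654952 (minus strand) for the 3p arm.
mmu-miR-483-5p: aAGACGGGagaagagaagggag
mmu-miR-483-3p: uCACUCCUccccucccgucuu

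Many genes of sterol synthesis (20 of 26 tested) were called higher in ANTA than in ANTA-NC, as were genes of ribosomal proteins (46 of 80), amino acid stress (15 of 34) and glycolysis (14 of 32). Genes of SR splicing factors (24 of 38) and acute phase proteins (6 of 17) were called lower. Most shifts were small. At a Benjamini-Hochberg adjusted p under 0.05 in edgeR's quasi-likelihood test, 1698 of 11562 genes (14.7%) were called, 878 higher (7.59%) and 820 lower (7.09%). Only 30 of the called genes differed by a fold of 2 or more, 13 higher and 17 lower, and 103 by a fold of 1.5 or more. The median absolute log2 fold change was 0.18 for genes called higher and 0.24 for genes called lower, against 0.10 over all genes tested. The 3 ANTA libraries did not overlap the 3 ANTA-NC libraries in CPM for 3461 genes (29.9%), among them 834 of the 878 higher and 779 of the 820 lower genes. Against Veh, ANTA had 754 genes called (6.52%; 354 higher, 3.06%, and 400 lower, 3.46%) and ANTA-NC had 118 (1.02%; 94 higher, 0.813%, and 24 lower, 0.208%). These comparisons share libraries with the first, so they are set side by side below as values only.

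**Figure D1:**
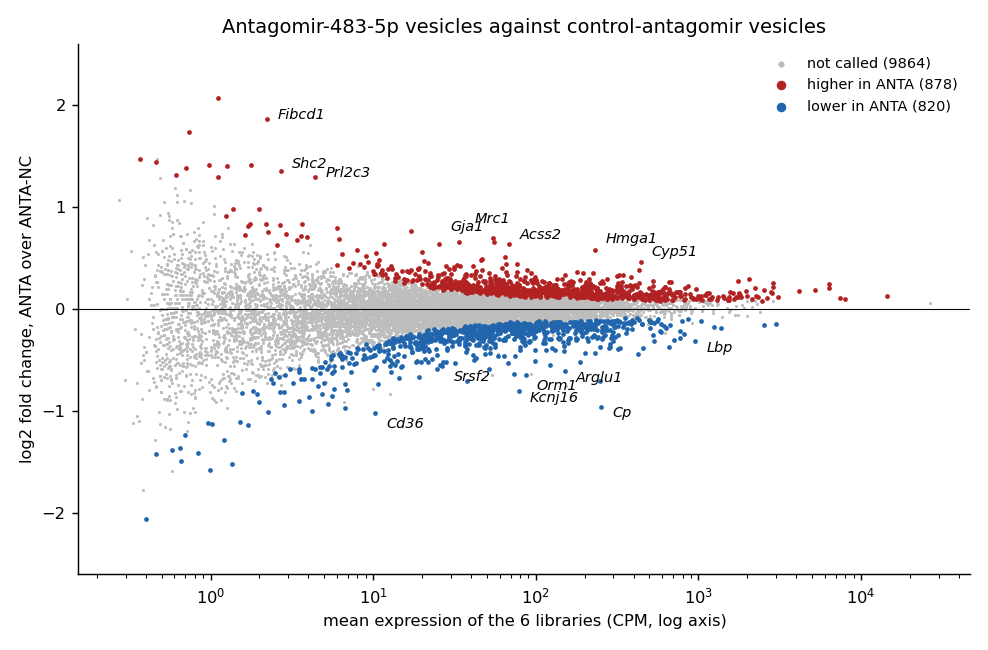
Each point is 1 of 11562 genes, with its mean CPM over the 6 libraries on a log axis and the log2 fold change of ANTA over ANTA-NC on the vertical axis. The 878 genes called higher are red, the 820 called lower blue and the rest grey, and most coloured points lie within a log2 fold change of 1 of the zero line.

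The balance of higher and lower calls followed the scaling of the libraries and the base composition of the genes. With library size alone the split was 530 higher and 1155 lower, and the median of all genes moved to -0.03. On log2(FPKM + 1) it was 392 and 881. After a correction for GC content and length in each library, called the GC trend below, it was 1090 and 643. Genes called higher had a median GC content of 52.0% and genes called lower 45.0%, against 50% over all genes tested. When genes were divided by GC content into 5 equal groups, 96 were higher and 350 lower in the poorest group (median 41.6%), and 213 and 48 in the richest (58.1%). With the trend removed these groups held 274 and 173, and 148 and 87. The part of base composition in the results below was not tested. No gene was called in the opposite direction in any of the alternatives run. Leaving out ANTA 2 lowered the number of calls most, to 1005 (474 higher and 531 lower), and leaving out the libraries numbered 1 of all groups gave 686 and 735. The 50 most abundant genes took 17.3% ± 0.25 of the counts in ANTA and 16.4% ± 0.14 in ANTA-NC (SD, n = 3; exact permutation test, two-sided, p = 0.1, the smallest possible).

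**Figure D2:**
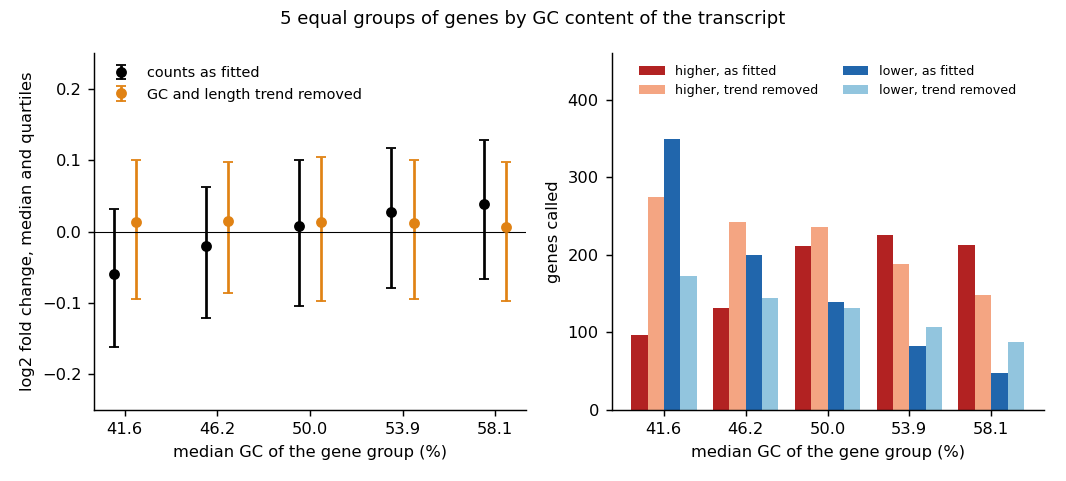
The left panel shows, for 5 equal groups of genes ordered by GC content (median in percent on the horizontal axis), the median log2 fold change of ANTA over ANTA-NC with its quartiles, as fitted and after the correction for GC content and length. The right panel shows the number of genes called higher and lower in each group, where higher calls go from 96 in the lowest group to 213 in the highest as fitted, and lower calls from 350 to 48.

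Genes with a site for miR-483-5p in their 3′ untranslated region (UTR) were called higher at shares of 6.42% to 6.98%, against 7.68% of genes without one. A match to the seed followed by an A opposite base 1 reads CCCGTCTA, and 43 tested genes carried it in their longest annotated 3′ UTR. Of these 43 genes, 3 were called higher (6.98%) and 4 lower (9.30%), with a median log2 fold change of 0.02. Among 452 genes with a match of 7 bases (CCCGTCT or CCGTCTA), 29 were higher (6.42%) and 48 lower (10.6%), with a median of 0.003. Among 10963 genes without a match, 842 were higher (7.68%) and 759 lower (6.92%), with a median of -0.002. Genes with a match had longer 3′ UTRs, with medians of 2821 and 2480.5 bases for 8 and 7 bases against 1121 bases without a match. With the GC trend removed the genes with 8 bases had 4 calls higher and 3 lower, and those with 7 bases 39 and 36. For miR-483-3p, given for comparison, 389 genes with 8 bases had 23 higher and 31 lower, and 1650 genes with 7 bases had 146 and 129. A match is a description of the sequence and not a measured site.

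The 7 called genes with an 8-base match are shown with 30 bases around it (GRCm38, GENCODE M21; the match in capitals), because microRNAs act mainly through such matches. In order, the sites lie at chr5:93275073-93275102 (plus strand), chr19:58796769-58796798 (minus), chr11:95767670-95767699 (plus), chr6:91756862-91756891 (plus), chr6:86432983-86433012 (plus), chr3:104007120-104007149 (plus) and chr10:93861122-93861151 (minus).
Ccng2: ctagtccagccCCCGTCTAgacaggaattt
Hspa12a: gtagcaattctCCCGTCTAgactttgagag
Zfp652: cacaacctcacCCCGTCTAaccagaggcaa
Slc6a6: ctgtggtcatgCCCGTCTAccctaccccta
Tia1: aaaggagactcCCCGTCTAgattgtccttc
Phtf1: ctccactcagcCCCGTCTAacgaatggagc
Metap2: taactgtttctCCCGTCTAggaaatgctgt

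Ccng2, an atypical cyclin of growth arrest, had 232, 227 and 237 CPM in ANTA-NC 1 to 3 and 268, 261 and 260.4 CPM in ANTA 1 to 3 (log2 fold change 0.18, SE 0.03, adjusted p = 0.00102). Zfp652, a zinc finger repressor gene, had 130.3, 126 and 127 CPM in ANTA-NC and 144, 145 and 144 CPM in ANTA (0.18, SE 0.04). The groups did not overlap for either gene. Hspa12a, a distant relative of the HSP70 chaperones, changed by 0.22 (SE 0.06, adjusted p = 0.0159), a call that ended without ANTA-NC 1, ANTA-NC 2, ANTA 1 or ANTA 3 (adjusted p up to 0.0808). Slc6a6, the taurine transporter gene, went the other way, with 329, 321 and 315 CPM in ANTA-NC and 261, 229.6 and 252 CPM in ANTA, a change of -0.38 (SE 0.04, adjusted p = 7.21e-06). Tia1, a stress granule protein gene, changed by -0.31 (SE 0.04), Phtf1 by -0.15 and Metap2, a methionine aminopeptidase gene, by -0.11. Phtf1 was lost without ANTA-NC 2 or ANTA 2 (adjusted p up to 0.0700) and Metap2 without ANTA-NC 1, ANTA-NC 2, ANTA 2 or ANTA 3 (up to 0.136), and also after removal of the GC trend (adjusted p = 0.325).

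**Figure D3:**
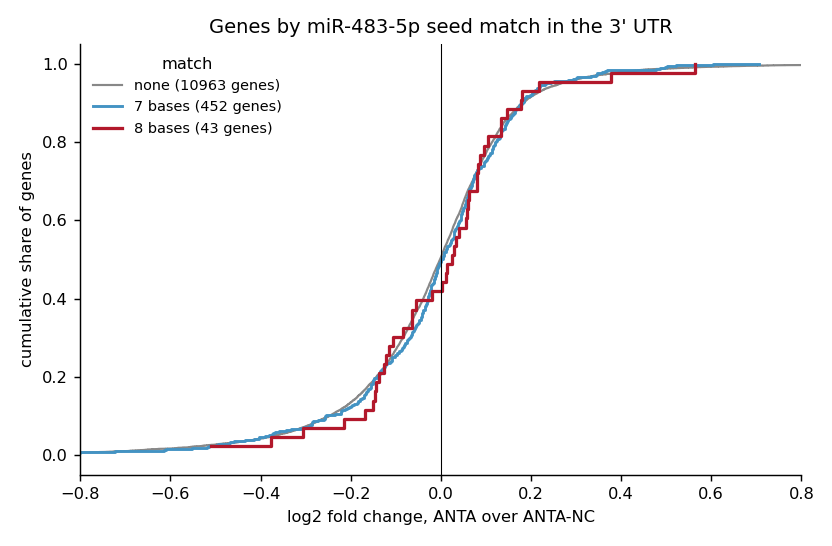
Cumulative share of genes against the log2 fold change of ANTA over ANTA-NC, for genes with an 8-base match to the miR-483-5p seed in the 3′ UTR (43 genes), a 7-base match (452) or none (10963). The 3 curves cross zero close to one another, at medians of 0.02, 0.003 and -0.002.

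Of 8 tested genes that have been reported as miR-483-5p targets, 2 were called higher (25%) and 1 lower (12.5%). The shares over all genes tested were 7.59% and 7.09%. Mapk3, the kinase ERK1, had 93.1, 98.5 and 97.8 CPM in ANTA-NC and 109, 113 and 107 CPM in ANTA (0.19, SE 0.04, adjusted p = 0.0042), without overlap. Arhgdia, a GDP dissociation inhibitor gene, gave 0.13 (SE 0.04, adjusted p = 0.0149), was lost without ANTA 1 or ANTA 2 (adjusted p up to 0.0649) and lost with the GC trend removed, where the fold change was 0.10 (adjusted p = 0.0548). Alcam, an adhesion molecule gene, gave -0.16 (SE 0.04), was lost without ANTA-NC 2, ANTA-NC 3, ANTA 2 or ANTA 3 (adjusted p up to 0.0817) and lost with the GC trend removed, where the fold change was -0.11 (adjusted p = 0.0955).

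**Figure D4:**
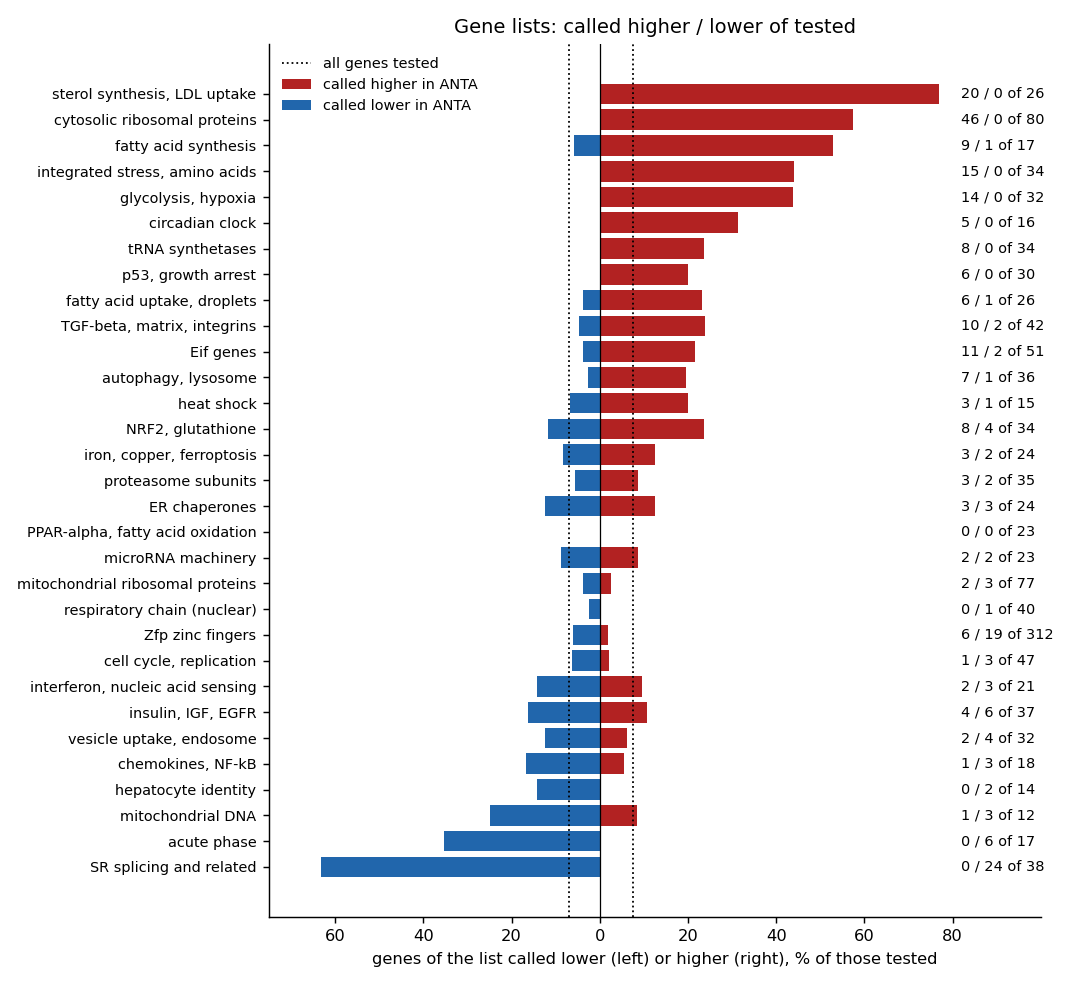
For each gene list the bars give the percent of its tested genes called higher in ANTA (red, right) or lower (blue, left), with the numbers at the right edge. Dotted lines mark all genes tested (7.59% higher and 7.09% lower), and the lists with the largest shares were sterol synthesis (20 of 26 higher) and SR splicing factors (24 of 38 lower).

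Sterol synthesis is driven by the transcription factor SREBP2, which the cell activates when its membranes run short of cholesterol, and the pathway leads from acetyl-CoA through mevalonate, squalene and lanosterol to cholesterol. Of 26 tested genes of sterol synthesis and LDL uptake, 20 were called higher and none lower, with a median log2 fold change of 0.23. Their summed level was 4639 to 4818 CPM in ANTA-NC, 5418 to 5783 CPM in ANTA and 4909 to 4976 CPM in Veh. The list had a median GC content of 51.3%, and 20 members were also called higher with the GC trend removed and 16 with library size alone. Against Veh, ANTA had 12 members higher and none lower, and ANTA-NC had no member called. Of the 20 calls 13 held in each of the 9 fits that left out 1 library.

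Cyp51, the lanosterol demethylase gene (chr5:4081145-4104746, minus strand), had 374, 396 and 349.9 CPM in ANTA-NC and 548, 521 and 477 CPM in ANTA. Vehicle libraries lay at 398 CPM in all 3, and the log2 fold change between the vesicle groups was 0.47 (SE 0.04, adjusted p = 8.83e-07). Every ANTA library stood above every other library. Lss, which closes squalene epoxide into lanosterol (chr10:76531588-76557138, plus strand), had 369, 388 and 374 CPM in ANTA-NC and 499.9, 495 and 477 CPM in ANTA (0.38, SE 0.03, adjusted p = 3.1e-07). The gene of a sterol demethylating dehydrogenase, Nsdhl, had 135, 134 and 133 CPM in ANTA-NC and 176, 167 and 164 CPM in ANTA (0.33, SE 0.04), and Tm7sf2, a sterol reductase gene, changed by 0.40 (SE 0.05). Groups were separate for all of these.

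At earlier steps, Mvd, the mevalonate diphosphate decarboxylase gene, had 65.9, 64.6 and 65.2 CPM in ANTA-NC and 92.6, 91.6 and 82.6 CPM in ANTA (0.45, SE 0.05, adjusted p = 2.29e-06). Sqle, the squalene epoxidase gene, had 384, 398 and 392 CPM in ANTA-NC and 482, 464 and 458 CPM in ANTA (0.26, SE 0.03). Both were separate between the groups. The following members fall outside the rule for named genes and were chosen after their values were seen. Fdft1, the squalene synthase gene, changed by 0.35 (SE 0.05), Hmgcs1, the HMG-CoA synthase gene, by 0.29 (SE 0.04) and Insig1, the sterol-regulated anchor of the SREBP escort protein, by 0.29 (SE 0.04). Srebf2, which encodes SREBP2, changed by 0.18 (SE 0.03), with 538, 553 and 569 CPM in ANTA-NC and 618, 626 and 637 CPM in ANTA. Fdps, the farnesyl diphosphate synthase gene, gave 0.42 (SE 0.12) but was lost without ANTA-NC 2, ANTA-NC 3, ANTA 1 or ANTA 3 (adjusted p up to 0.108). The SREBP escort gene Scap gave -0.08, not called.

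Promoters of 18 of the 26 genes were among the RefSeq windows (GRCm38.p6, 250 bases before to 50 after the start; 9121 of 11562 tested genes matched by symbol). Motifs were searched on both strands. The sterol regulatory element was searched as TCACNCCAC, which stood in 1.74% of windows of genes called higher, 2.04% of genes called lower and 1.38% of all tested genes. Of the sterol list 1 of 18 windows held it, that of Hmgcs1, whose stretch at chr13:119690174-119690263 (plus strand) is shown with the match in capitals because its gene was called higher and SREBP2 is known to act on it.
Hmgcs1 promoter: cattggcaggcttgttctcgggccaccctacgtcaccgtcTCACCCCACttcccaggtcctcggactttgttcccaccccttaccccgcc
The box CCAAT, read by NF-Y, a partner of SREBP2, stood in 16 of 18 windows of the sterol list, against 43.5% of all tested genes, 42.5% of genes called higher and 42.0% of genes called lower. The letters CACGTG, an E box, stood in 5 of 18 against 11.7% of all tested genes. A match here is a description of letters in a window, not a bound site.

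Fatty acid synthesis turns acetyl-CoA into palmitate, which is then elongated and desaturated. Of 17 tested genes of the pathway 9 were called higher and 1 lower, with a median of 0.18, and the same counts were found with the GC trend removed. Acss2, which makes acetyl-CoA from acetate (chr2:155517948-155585724, plus strand), had 50.5, 57.8 and 52.3 CPM in ANTA-NC, 89.5, 83.6 and 76.3 CPM in ANTA and 56.5 to 62.4 CPM in Veh (0.63, SE 0.06, adjusted p = 8.83e-07). Acacb, the acetyl-CoA carboxylase whose product restrains fatty acid oxidation, had 2.77, 2.73 and 2.39 CPM in ANTA-NC and 4.37, 4.10 and 5.56 CPM in ANTA (0.84, SE 0.19, adjusted p = 0.00445). In neither gene did the groups overlap.

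The desaturase gene Scd1, whose enzyme makes oleate, had 1535, 1609 and 1599.6 CPM in ANTA-NC and 1909, 1956 and 1878 CPM in ANTA (0.28, SE 0.03), and its close relative Scd2 changed by 0.21 (SE 0.02). Slc25a1, the mitochondrial citrate carrier gene, changed by 0.29 (SE 0.05) and the polyunsaturated fatty acid desaturase genes Fads2 and Fads1 by 0.23 (SE 0.03) and 0.20 (SE 0.03). The core enzymes did not follow. Fasn, the fatty acid synthase gene, gave 0.05, Acaca, the main carboxylase gene of lipogenesis, gave -0.11 and Srebf1, the lipogenic SREBP gene, gave 0.05, none of them called and all named after their values were seen. Gpam, which starts glycerolipid synthesis and was also chosen after its value was seen, had 207, 189 and 197 CPM in ANTA-NC and 177, 166 and 170.1 CPM in ANTA (-0.21, SE 0.04, adjusted p = 0.00158).

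Genes of fatty acid uptake, triglyceride synthesis and lipid droplets had 6 of 26 called higher (23.1%) and 1 lower (3.85%), with a median of -0.02. All genes tested had 7.59% and 7.09%. The counts were 6 and 3 with the GC trend removed and 4 and 3 with library size alone. Cd36, a membrane receptor that brings fatty acids into cells (chr5:17781690-17888801, minus strand), had 13.5, 13.7 and 14.1 CPM in ANTA-NC, 6.50, 6.27 and 7.56 CPM in ANTA and 12.3 to 14.1 CPM in Veh. The log2 fold change was -1.02 (SE 0.11, adjusted p = 2.71e-06) against ANTA-NC and -0.99 against Veh, so the ANTA libraries stood below all the others. Fabp4, a cytosolic fatty acid carrier gene, moved up instead, with 39.7, 37.2 and 40.1 CPM in ANTA-NC and 55.0, 53.7 and 56.3 CPM in ANTA (0.50, SE 0.05, adjusted p = 1.98e-06).

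Lpin1, a phosphatidate phosphatase gene of triglyceride synthesis, had 78.9, 82.7 and 82.7 CPM in ANTA-NC and 94.0, 109.5 and 109 CPM in ANTA (0.36, SE 0.05), and Mogat2, a monoacylglycerol acyltransferase gene, changed by 0.36 (SE 0.08). Acsl1, which activates long-chain fatty acids, gave 0.20 (SE 0.06) and was lost without ANTA-NC 2 or ANTA 1 (adjusted p up to 0.102). Plin2, the main droplet coat gene of hepatocytes, gave -0.09, Dgat2, which completes triglycerides, -0.03 and Pnpla2, the adipose triglyceride lipase gene, -0.13, none called and all chosen after their values were seen. Of 23 tested genes of PPAR-alpha and fatty acid oxidation none was called, with a median of -0.03, although 1 was called higher with the GC trend removed and 2 lower with library size alone. Those with the smallest p were Hadh, a beta-oxidation dehydrogenase gene (0.11, adjusted p = 0.065), and Ppargc1a, a coactivator gene of mitochondrial metabolism (-0.43, adjusted p = 0.108). Cpt1a, the gate of mitochondrial fatty acid entry, gave 0.003 and Ppara 0.03.

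Among 11 lipoprotein genes, Lipc, the hepatic lipase gene, was low throughout, at 0.597, 0.481 and 0.508 CPM in ANTA-NC and 1.44, 1.41 and 1.40 CPM in ANTA (1.41, SE 0.30, adjusted p = 0.0035), with no overlap. Apoa1, the apolipoprotein of HDL, had 3.64, 4.33 and 6.00 CPM in ANTA-NC and 2.42, 3.34 and 2.97 CPM in ANTA (-0.68, SE 0.20), and was lost without ANTA-NC 3, ANTA 1 or ANTA 3 (adjusted p up to 0.156). Apoe and Apob gave -0.34 and -0.09, not called and chosen after their values were seen.

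Acute phase proteins are plasma proteins that the liver makes more of in inflammation, largely through interleukin 6 and STAT3. Of 17 tested acute phase genes 6 were called lower and none higher, with a median of -0.27, the same counts were found with the GC trend removed and with library size alone, and the median GC content was 52.5%. The summed level of all 33 listed genes was 1880 to 1972 CPM in ANTA-NC, 1430 to 1582 CPM in ANTA and 1933 to 2007 CPM in Veh. In the vesicle libraries Lbp and Cp, both given below, made up most of that sum, so it describes mainly those genes. Cp, which encodes the copper-carrying ferroxidase ceruloplasmin (chr3:19957054-20009145, plus strand), had 348, 344 and 309 CPM in ANTA-NC, 179, 173 and 164 CPM in ANTA and 333, 339.8 and 328 CPM in Veh. Its log2 fold change was -0.96 (SE 0.04, adjusted p = 1.38e-11), the smallest p among the 11562 genes tested, and the ANTA libraries lay far below the other 6.

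Orm1, the orosomucoid gene (chr4:63344560-63348163, plus strand), had 110.1, 99.3 and 109.6 CPM in ANTA-NC and 65.4, 68.9 and 68.8 CPM in ANTA (-0.65, SE 0.05, adjusted p = 6.8e-08). Lbp, whose protein hands bacterial lipopolysaccharide to CD14, had 1019, 1065 and 1099 CPM in ANTA-NC and 792, 891 and 884 CPM in ANTA (-0.31, SE 0.04), and Lcn2, a siderophore-binding lipocalin gene, had 20.8, 20.6 and 23.7 CPM in ANTA-NC and 14.4, 17 and 18.1 CPM in ANTA (-0.39, SE 0.09). All 3 genes were separate between the groups. Orm2 (-0.69) was lost without ANTA-NC 3 (adjusted p = 0.0532), and Hpx, the haem scavenger hemopexin (-0.83), without ANTA-NC 1, ANTA-NC 2 or any ANTA library (up to 0.166). Regulators of the response gave small values: Stat3 -0.01, Socs3 0.01, Il6ra -0.04 and Il6st 0.10, none called and all chosen after their values were seen. C3, the central complement gene, chosen in the same way, gave -0.27, not called.

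Of 18 tested chemokine and NF-kB genes 3 were called lower (16.7%) and 1 higher (5.56%), against 7.09% and 7.59% of all genes tested. Csf1, the macrophage growth factor gene, had 36.0, 38.3 and 38.8 CPM in ANTA-NC and 29.2, 24.5 and 24.8 CPM in ANTA (-0.53, SE 0.06, adjusted p = 1.84e-05). Ccl2, a monocyte chemokine gene, had 12.6, 15.4 and 12 CPM in ANTA-NC and 6.90, 9.72 and 7.5 CPM in ANTA (-0.73, SE 0.13, adjusted p = 0.000884). Neither overlapped between the groups. Nfkb2, which encodes an NF-kB subunit, went up by 0.27 (SE 0.05). Cxcl5 gave -0.57 and was lost without ANTA-NC 2, ANTA-NC 3, ANTA 1 or ANTA 3 (adjusted p up to 0.0802), and also after removal of the GC trend (adjusted p = 0.0711). Of 21 interferon genes 2 were higher (9.52%) and 3 lower (14.3%). Ifit2, an interferon-induced antiviral gene, had 18.2, 17.1 and 18.3 CPM in ANTA-NC and 12.7, 12.4 and 13.8 CPM in ANTA (-0.46, SE 0.09). B2m, the light chain of MHC class I, gave -0.17 (SE 0.04; adjusted p = 0.0717 with the GC trend removed). Bst2 (-0.19) was lost without ANTA-NC 1, ANTA-NC 3, ANTA 2 or ANTA 3 (adjusted p up to 0.144) and Oasl1 (0.39) without ANTA-NC 1, ANTA-NC 3, ANTA 1 or ANTA 2 (up to 0.120). H2-K1 (0.17) was lost without any 1 vesicle library other than ANTA 3 (up to 0.136), and also after removal of the GC trend (adjusted p = 0.0522).

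Of 24 genes of iron and copper handling 3 were higher (12.5%) and 2 lower (8.33%), against 7.59% and 7.09% of all genes tested. Tfrc, the transferrin receptor gene through which cells take up iron, had 117, 116 and 107 CPM in ANTA-NC and 87.9, 80.3 and 88.7 CPM in ANTA (-0.40, SE 0.05, adjusted p = 1.51e-05). The ferritin genes went the other way. Ftl1, the light chain, changed by 0.30 (SE 0.05) but shares 78.9% of its 50-base stretches with a pseudogene and is uncertain. Fth1, the heavy chain, changed by 0.13 (SE 0.03) and was lost without ANTA-NC 2 or ANTA 2 (adjusted p up to 0.0646). Against Veh, ANTA gave 0.07 for Ftl1 and 0.01 for Fth1, neither called. ANTA-NC against Veh gave -0.23 for Ftl1 (adjusted p = 0.0442) and -0.12 for Fth1 (adjusted p = 0.0643). Ncoa4, the receptor that brings ferritin to lysosomes, changed by 0.24 (SE 0.04) and shares 43.1% of its stretches with a predicted gene, so it is uncertain as well. Slc39a14, an iron and zinc importer gene, changed by -0.13 (SE 0.03).

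The integrated stress response is set off when amino acids run short or proteins misfold: eIF2 is phosphorylated, ATF4 is translated and genes of amino acid synthesis and transport are switched on. Of 34 tested genes of this response 15 were called higher and none lower, with a median of 0.15 and a median GC content of 53.7%. With the GC trend removed 18 were higher and 1 lower, and with library size alone 13 and 2. Against Veh, ANTA had 11 higher and 2 lower, and ANTA-NC had none called. Atf3, a stress-induced transcription factor gene (chr1:191170296-191218039, minus strand), had 14.1, 18.1 and 16.5 CPM in ANTA-NC, 22.5, 25.5 and 23.8 CPM in ANTA and 17.7 to 18.9 CPM in Veh. The change was 0.56 (SE 0.09, adjusted p = 0.000179), with every ANTA library above the others.

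Trib3, a pseudokinase gene that ATF4 induces, had 24.1, 27.8 and 28.2 CPM in ANTA-NC and 32.4, 39.4 and 35.4 CPM in ANTA (0.42, SE 0.07, adjusted p = 0.000664). Slc7a5, the large neutral amino acid transporter gene, changed by 0.28 (SE 0.05), Aldh18a1, which starts proline synthesis, by 0.27 (SE 0.05), Mthfd2, a mitochondrial folate enzyme gene, by 0.27 (SE 0.05) and Asns, the asparagine synthetase gene, by 0.24 (SE 0.04). All of these were separate between the groups and held without any 1 library. Atf4 itself gave 0.11 and Ddit3, which encodes CHOP, 0.28 (adjusted p = 0.0969), neither called and both chosen after their values were seen. Chac1, a glutathione-degrading enzyme gene chosen in the same way, gave 0.37 and was lost without Veh 2, Veh 3, ANTA-NC 1, ANTA-NC 3, ANTA 2 or ANTA 3 (adjusted p up to 0.222).

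The amino acid response element was searched as TGATGNAAT, the composite site of C/EBP and ATF4. Of 28 matched promoter windows of this list 3 held it, against 0.868% of genes called higher, 0.314% of genes called lower and 0.504% of all tested genes. They are shown with the match in capitals, read on the strand of the gene, because this response was called higher. The stretches lie at chr11:120643802-120643891 (minus strand) for Pycr1, a proline synthesis gene, chr7:126625532-126625621 (minus) for Nupr1, a stress-induced chromatin protein gene, and chr8:111033689-111033778 (plus) for Aars, the alanyl-tRNA synthetase gene.
Pycr1 promoter: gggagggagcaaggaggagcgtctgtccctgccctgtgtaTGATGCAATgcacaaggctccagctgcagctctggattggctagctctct
Nupr1 promoter: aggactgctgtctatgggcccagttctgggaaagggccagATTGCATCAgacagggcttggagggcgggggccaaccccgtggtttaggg
Aars promoter: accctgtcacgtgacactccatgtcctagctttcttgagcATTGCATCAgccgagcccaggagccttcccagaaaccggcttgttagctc
Aars had 198, 211 and 211 CPM in ANTA-NC and 223, 262 and 239 CPM in ANTA (0.22, SE 0.05, adjusted p = 0.00358), and Pycr1 changed by 0.35 (SE 0.07, adjusted p = 0.00331). Nupr1 gave 0.42 but was not called (adjusted p = 0.0546).

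Aminoacyl-tRNA synthetases, which charge tRNAs with amino acids, had 8 of 34 genes called higher (23.5%) and none lower. All genes tested had 7.59% and 7.09%. With the GC trend removed 10 were higher, and with library size alone 5. The called genes were Aars, Yars (0.20), Cars (0.19), Sars (0.16), Gars (0.15), Vars (0.14), Qars (0.13) and Iars (0.13), the last pair named after their values were seen. Of these Aars and Sars held without any 1 library, whereas Yars was lost without ANTA 2 (adjusted p = 0.0624), Cars and Gars without ANTA-NC 1 or ANTA 2 (up to 0.112 and 0.0815) and Vars without ANTA-NC 1, ANTA-NC 2, ANTA 2 or ANTA 3 (up to 0.118). Qars was lost without Veh 3, ANTA-NC 2, ANTA-NC 3, ANTA 1 or ANTA 2 (up to 0.174) and Iars without ANTA-NC 1, ANTA-NC 3, ANTA 2 or ANTA 3 (up to 0.144). With the GC trend removed neither Vars (0.09, adjusted p = 0.119) nor Qars (0.11, adjusted p = 0.0602) was called. No mitochondrial synthetase gene was called.

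Serine and arginine rich (SR) proteins and their partners bind pre-messenger RNA and set which splice sites are used, and many of their own transcripts switch between a coding form and one that is degraded. Of 38 tested genes of this group 24 were called lower in ANTA than in ANTA-NC and none higher, with a median of -0.22, and 20 of the calls held without any 1 library. Here the vehicle level matters. The summed level was 9161 to 9395 CPM in ANTA-NC, 7797 to 8358 CPM in ANTA and 7949 to 8089 CPM in Veh, so the ANTA range spanned that of Veh and ANTA-NC lay above both. Against Veh, ANTA had 1 member called higher and 3 lower, while ANTA-NC had 16 higher and none lower. The group has a low median GC content of 44.8%, and GC content moved with the groups as given above. With the trend removed 22 were lower and 1 higher, and with library size alone 28 were lower.

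Arglu1, a coactivator gene that also acts in splicing (chr8:8665075-8690521, minus strand), had 188, 174 and 187 CPM in ANTA-NC, 122, 111 and 128 CPM in ANTA and 138, 137 and 141 CPM in Veh. The change was -0.61 (SE 0.05, adjusted p = 9.84e-08) against ANTA-NC and -0.21 (adjusted p = 0.0131) against Veh. Here the groups lay in the order ANTA, Veh, ANTA-NC without overlap. Srsf10, a splicing repressor gene, had 269, 265 and 266 CPM in ANTA-NC, 188, 196 and 208 CPM in ANTA and 211 to 218 CPM in Veh (-0.44, SE 0.04, adjusted p = 3.15e-07; -0.12, adjusted p = 0.0686 against Veh).

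Rsrp1, an arginine and serine rich protein gene, had 242, 221 and 232 CPM in ANTA-NC, 167, 163 and 184 CPM in ANTA and 169 to 179 CPM in Veh (-0.44, SE 0.05), so ANTA and Veh overlapped. Rbm25, whose protein binds splicing enhancers, changed by -0.37 (SE 0.04). Srsf2 (-0.52, SE 0.05) overlaps exons on the opposite strand over 25.3% of its exon bases, and Srsf5 (-0.44, SE 0.04) shares stretches with a predicted gene, so both are uncertain. Luc7l3 and Srsf1 were chosen after their values were seen. Luc7l3, a U1 snRNP-associated gene, had 357, 262 and 309 CPM in ANTA-NC and 198, 160.5 and 212 CPM in ANTA (-0.70, SE 0.10, adjusted p = 7.17e-05). Srsf1 had 236, 206 and 225 CPM in ANTA-NC, 154, 134 and 176 CPM in ANTA and 148 to 172 CPM in Veh (-0.52, SE 0.07). For both genes the ANTA and ANTA-NC libraries did not overlap.

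In several named genes outside that group, put together here after their values were seen, ANTA-NC also stood above both other groups. Ogt, the O-GlcNAc transferase gene, had 520.1, 502 and 537 CPM in ANTA-NC, 394, 362 and 442 CPM in ANTA and 395 to 416 CPM in Veh (-0.38, SE 0.05, adjusted p = 2.86e-05; -0.02 against Veh). Mdm4, a p53 inhibitor gene, changed by -0.37 (SE 0.05) and by -0.10 against Veh, where it was not called. Wsb1, a ubiquitin ligase gene, had 381, 374 and 371 CPM in ANTA-NC, 288, 277 and 298 CPM in ANTA and 310.4 to 322 CPM in Veh (-0.38, SE 0.03). Vmp1, whose protein acts in autophagosome formation, had 368, 365 and 359.9 CPM in ANTA-NC and 271, 277 and 283 CPM in ANTA (-0.39, SE 0.03, adjusted p = 1.47e-07), with 318 to 331 CPM in Veh. Zinc finger genes of the Zfp series had 6 of 312 called higher (1.92%) and 19 lower (6.09%), both under the 7.59% and 7.09% of all genes tested. The split was 12 and 9 with the GC trend removed and 4 and 27 with library size alone. Against Veh, ANTA-NC had 4 members higher and none lower. Among the members called lower in ANTA, Zfp40 gave -0.66 (SE 0.09), Zfp950 -0.52, Zfp329 -0.49 and Zfp57, an imprinting factor gene, -0.46 (SE 0.05).

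Glycolysis breaks glucose down to pyruvate, and many of its genes answer to HIF1. Of 32 tested genes of glycolysis and hypoxia 14 were called higher and none lower, with a median of only 0.08 and a GC content of 52.5%. The counts were 15 and 0 with the GC trend removed and 12 and 2 with library size alone. Against Veh, ANTA had 4 higher and ANTA-NC had 2 lower, and the summed level of all listed genes was 29650 to 29810 CPM in ANTA-NC, 31743 to 32966 CPM in ANTA and 31153 to 31697 CPM in Veh. Aldoa, the muscle-type aldolase gene, had 2578, 2639 and 2764 CPM in ANTA-NC, 3054, 3206 and 3033 CPM in ANTA and 2877 to 2930.4 CPM in Veh (0.22, SE 0.03, adjusted p = 2.12e-05). The symbol stands on more than one gene ID, and this is the abundant one.

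Gpi1, the glucose phosphate isomerase gene, had 1538, 1511 and 1593 CPM in ANTA-NC and 1707, 1753 and 1717 CPM in ANTA (0.16, SE 0.03), Tpi1, the triose phosphate isomerase gene, changed by 0.14 (SE 0.02) and Aldoc, another aldolase gene, by 0.30 (SE 0.06). Each was separate between the groups. Pkm (0.17, SE 0.02), Pgk1 (0.10, SE 0.02) and Gapdh (0.20, SE 0.04) share stretches with other annotated genes and are uncertain. The HIF1 targets Vegfa, Car9 and Pdk1 gave 0.02, -0.22 and -0.06, none called and all chosen after their values were seen.

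Cytosolic ribosomal protein genes had 46 of 80 called higher and none lower, with a median of 0.11, the largest number of calls of any list. The summed level of all 83 listed genes was 52717 to 54314 CPM in ANTA-NC, 56339 to 58001 CPM in ANTA and 55273 to 56938 CPM in Veh, so ANTA and Veh overlapped. ANTA had 2 members higher than Veh, and ANTA-NC had 8 lower than Veh. With library size alone 29 were higher, with the GC trend removed 49, and 24 of the 46 calls held without any 1 library. Rpl4, of the large subunit, had 2212, 2239 and 2241 CPM in ANTA-NC, 2432, 2462 and 2384 CPM in ANTA and 2389.7 to 2397 CPM in Veh (0.12, SE 0.02, adjusted p = 0.000997). Rpl18 had 652, 673 and 665 CPM in ANTA-NC and 743, 755 and 714 CPM in ANTA (0.15, SE 0.03). Rpl12, Rpl28, Rps7 and Rps27a, at 0.16 to 0.17, share stretches with other annotated genes and are uncertain. Mitochondrial ribosomal protein genes had 2 of 77 higher and 3 lower.

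Among other genes of translation, Eef2, the elongation factor of ribosome translocation, had 4953, 4859 and 4918 CPM in ANTA-NC, 5734, 5642 and 5361 CPM in ANTA and 5249.9 to 5404 CPM in Veh (0.18, SE 0.02, adjusted p = 4.43e-05). Pabpc1, which coats poly(A) tails, had 1841, 1833 and 1848 CPM in ANTA-NC, 2301, 2281 and 2204 CPM in ANTA and 1888 to 2023 CPM in Veh (0.30, SE 0.03, adjusted p = 4.69e-07). Eef1a1 changed by 0.13 (SE 0.02) and is uncertain, since it shares stretches with another annotated gene. Of 51 initiation factor genes 11 were higher (21.6%) and 2 lower (3.92%), against 7.59% and 7.09% of all genes tested. Eif4h, a helper of the helicase eIF4A, gave 0.26 (SE 0.04) and Eif1a, which scans for the start codon, gave -0.36 (SE 0.06). Eif3c gave 0.16 (SE 0.03) and Eif4ebp1, a repressor of translation initiation and an ATF4 target, 0.20 (SE 0.04).

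Genes of TGF-beta signalling, matrix and integrins had 10 of 42 called higher (23.8%) and 2 lower (4.76%), against 7.59% and 7.09% of all genes tested. The split became 6 and 3 with the GC trend removed and 4 and 4 with library size alone. Vim, the intermediate filament gene vimentin, had 2609, 2644 and 2634 CPM in ANTA-NC and 3193, 3159 and 3032 CPM in ANTA (0.25, SE 0.02, adjusted p = 8.67e-07), and Fn1, the fibronectin gene, changed by 0.27 (SE 0.04). Tgfbr1, the type I TGF-beta receptor gene, went down, with 155, 149 and 152 CPM in ANTA-NC and 118, 123 and 135 CPM in ANTA (-0.28, SE 0.05), as did Thbs1, the thrombospondin gene (-0.37, SE 0.07). None of these overlapped between the groups.

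Of 37 genes of insulin, IGF and EGFR signalling 4 were higher (10.8%) and 6 lower (16.2%), against 7.59% and 7.09% of all genes tested. Igfbp7, an IGF-binding protein gene, had 281, 287 and 287 CPM in ANTA-NC, 231, 234 and 244 CPM in ANTA and 304 to 312 CPM in Veh (-0.27, SE 0.03, adjusted p = 1.51e-05). Egfr, the receptor that the transgene product of this line binds, had 79.9, 79.8 and 83.6 CPM in ANTA-NC and 67.7, 61.4 and 69.0 CPM in ANTA (-0.30, SE 0.05), and Dusp6, a phosphatase gene that ERK signalling induces, changed by -0.33 (SE 0.06). Erbb3, an EGFR relative, went up by 0.20 (SE 0.04). Tgfa gave -0.02, not called, and was chosen after its value was seen. Its counts are those of the mouse gene, and whether they include reads of the transgene was not tested. Fgfr2, a fibroblast growth factor receptor gene, had 9.28, 8.98 and 7.93 CPM in ANTA-NC, 4.95, 4.92 and 5.24 CPM in ANTA and 8.76 to 10.3 CPM in Veh (-0.79, SE 0.13, adjusted p = 0.000314).

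NRF2 and glutathione genes had 8 of 34 higher (23.5%) and 4 lower (11.8%), against 7.59% and 7.09% of all genes tested. The counts were 9 and 5 with the GC trend removed and 6 and 7 with library size alone. Abcc1, a glutathione conjugate exporter gene, had 197, 193 and 199 CPM in ANTA-NC and 239, 232 and 234 CPM in ANTA (0.26, SE 0.03), and Tkt, the transketolase gene, changed by 0.20 (SE 0.03) and Hmox1, the haem oxygenase gene, by 0.22 (SE 0.04). Mgst1, a microsomal glutathione transferase gene, went down, with 132, 128 and 124 CPM in ANTA-NC and 99.7, 106 and 99.3 CPM in ANTA (-0.33, SE 0.05). Akr1c14, a steroid dehydrogenase gene, had 10.1, 8.28 and 8.39 CPM in ANTA-NC and 5.12, 4.16 and 4.32 CPM in ANTA (-0.98, SE 0.15, adjusted p = 0.000265). Selenop, the plasma selenium carrier gene, had 787, 794 and 756 CPM in ANTA-NC and 619, 642 and 627 CPM in ANTA (-0.31, SE 0.03), and Nox4, an NADPH oxidase gene, changed by -0.85 (SE 0.16).

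Of 24 endoplasmic reticulum chaperone genes 3 were higher (12.5%) and 3 lower (12.5%), against 7.59% and 7.09% of all genes tested. Xbp1, the transcription factor gene of the unfolded protein response, gave 0.23 (SE 0.04), Herpud1 0.23 (SE 0.05) and P4hb, a disulphide isomerase gene, 0.12 (SE 0.02), while Dnajb11 gave -0.29 (SE 0.06). Hsp90b1 (-0.13) was lost without ANTA-NC 1 or ANTA 3 (adjusted p up to 0.0978) and Pdia3 (-0.12) without ANTA-NC 1, ANTA-NC 2, ANTA 2 or ANTA 3 (up to 0.148). Neither was called with the GC trend removed, where the log2 fold changes were -0.07 (adjusted p = 0.125) and -0.08 (adjusted p = 0.119). Hspa5, the main chaperone of that response, gave -0.07, not called and chosen after its value was seen. Among 15 heat shock genes 3 were higher (20%) and 1 lower (6.67%), with Hsp90ab1 at 0.16 (SE 0.03).

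Clock genes had 5 of 16 called higher (31.25%) and none lower, against 7.59% and 7.09% of all genes tested. The counts were 6 and 0 with the GC trend removed and 4 and 1 with library size alone. Per1, a repressor of the clock, had 150.0, 155 and 164 CPM in ANTA-NC and 195, 202 and 207 CPM in ANTA (0.36, SE 0.04, adjusted p = 8.99e-06), without overlap. Nr1d1, which encodes REV-ERB alpha, had 47.3, 54.6 and 64.4 CPM in ANTA-NC and 64.2, 78.3 and 83.3 CPM in ANTA (0.44, SE 0.09), with a slight overlap. Dbp gave 0.35 (SE 0.08) and Bhlhe40 0.22 (SE 0.04), while Nfil3 (0.19) was lost without Veh 3, ANTA-NC 1, ANTA-NC 2, ANTA 2 or ANTA 3 (adjusted p up to 0.178). The activators Arntl and Clock gave 0.01 and -0.10, not called and chosen after their values were seen.

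Of 30 genes of p53 and growth arrest 6 were higher (20%) and none lower, against 7.59% and 7.09% of all genes tested. The counts were 7 and 0 with the GC trend removed and 4 and 2 with library size alone. Cdkn1a, which encodes p21, had 185, 198 and 204 CPM in ANTA-NC and 216, 240.2 and 229 CPM in ANTA (0.22, SE 0.04, adjusted p = 0.00194), and Gadd45b gave 0.27 (SE 0.06). Gadd45a (0.26) and Cdkn1b (0.14) were lost without ANTA-NC 1 or ANTA 2 (adjusted p up to 0.067 and 0.0664). Cell cycle genes had 1 of 47 higher (2.13%) and 3 lower (6.38%), both under the shares of all genes tested. Ccnd1, the cyclin D1 gene, had 313, 307 and 303 CPM in ANTA-NC and 285, 254 and 262 CPM in ANTA (-0.21, SE 0.04), and Cdc25b, a phosphatase gene of mitotic entry, changed by 0.31 (SE 0.07). Mki67, the proliferation marker, gave -0.04, not called and chosen after its value was seen.

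Autophagy and lysosome genes had 7 of 36 higher (19.4%) and 1 lower (2.78%), against 7.59% and 7.09% of all genes tested. Sqstm1, the autophagy receptor p62, had 292, 287 and 291 CPM in ANTA-NC and 334, 348 and 334 CPM in ANTA (0.22, SE 0.03, adjusted p = 7.41e-05), whereas Lipa, the lysosomal acid lipase that frees cholesterol and fatty acids, had 148, 144 and 142 CPM in ANTA-NC and 123, 128 and 128 CPM in ANTA (-0.20, SE 0.04). Npc1, the lysosomal cholesterol exporter gene, gave 0.17 and was lost without ANTA-NC 1 (adjusted p = 0.0665). Tmem106b, a lysosomal membrane protein gene, changed by -0.28 (SE 0.03). Genes of vesicle uptake and endosomes had 2 of 32 higher (6.25%) and 4 lower (12.5%). Anxa2 gave 0.17 (SE 0.03) and Tspan8, a tetraspanin gene, -0.25 (SE 0.04). Rab11a, of recycling endosomes, gave -0.21 (SE 0.05; adjusted p = 0.0839 with the GC trend removed), and Cavin1, of caveolae, gave -0.16 and was lost without ANTA-NC 1 or ANTA 2 (adjusted p up to 0.065). Of 23 genes of the microRNA machinery 2 were higher (8.70%) and 2 lower (8.70%), close to the shares of all genes tested. Drosha, which cuts primary microRNAs, gave 0.19 (SE 0.04) and the deadenylase gene Cnot6 -0.20 (SE 0.04). Ago2 gave 0.10 and Dicer1 -0.07, not called and chosen after their values were seen.

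Of 12 transcripts of mitochondrial DNA 1 was higher (8.33%) and 3 lower (25%). With the GC trend removed 4 were higher and none lower, at a median GC content of 37.4%, so no direction is given for them. The called ones were mt-Atp6 (-0.20, sharing sequence with a predicted gene), mt-Cytb (-0.15), mt-Nd1 (-0.15) and mt-Nd6 (0.23), and each was lost without ANTA 3. The call of mt-Atp6 also ended without ANTA-NC 3 or ANTA 2 (adjusted p up to 0.192), that of mt-Cytb without ANTA-NC 1, ANTA-NC 2 or ANTA 2 (up to 0.152), that of mt-Nd1 without ANTA-NC 2 or ANTA 1 (up to 0.285) and that of mt-Nd6 without ANTA-NC 1, ANTA-NC 2, ANTA 1 or ANTA 2 (up to 0.167). Nuclear genes of the respiratory chain had 1 of 40 called lower (2.5%) and none higher. It was Atp5j at -0.18, which was lost without ANTA-NC 1, ANTA 2 or ANTA 3 (adjusted p up to 0.144). Proteasome subunits had 3 of 35 higher (8.57%) and 2 lower (5.71%), against 7.59% and 7.09% of all genes tested, with Psmd6 at -0.26 (SE 0.05). Of 18 replication-dependent histone genes 1 was higher (5.56%) and none lower. It was Hist1h2bc at 0.30, which is uncertain through its relatives. Its call was lost without Veh 2, Veh 3, ANTA-NC 1, ANTA 2 or ANTA 3 (adjusted p up to 0.232).

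Of 14 tested hepatocyte genes 2 were called lower (14.3%) and none higher, against 7.09% and 7.59% of all genes tested. Their median was 0.08, with 8 above 0 and 6 below. The 2 called were the low products Ttr and Alb, and neither call held in every fit that left out 1 library. Other tested products, among them Rbp4 and Afp, were not called. Ttr, the transthyretin gene, had 2.33, 1.39 and 1.42 CPM in ANTA-NC and 0.748, 0.586 and 0.756 CPM in ANTA (-1.28, SE 0.31), and was lost without ANTA-NC 1 (adjusted p = 0.0589). Alb, the albumin gene, had 5.37, 7.21 and 4.78 CPM in ANTA-NC and 1.73, 4.80 and 3.72 CPM in ANTA (-0.76, SE 0.24), with overlap, and was lost without ANTA-NC 2, ANTA 1 or ANTA 3 (up to 0.182). The regulators Hnf4a and Nr1h4 gave -0.16 and -0.02, not called and chosen after their values were seen. Krt19 changed by 0.19 (SE 0.03, adjusted p = 0.000344). Among 5 tested cholangiocyte markers Krt19 was the 1 called higher (20%) and Spp1 the 1 called lower (20%). All genes tested had 7.59% and 7.09%, and the median of the 5 was 0.04. The summed level of the 10 listed cholangiocyte markers was 3676 to 3853 CPM in ANTA-NC and 3973 to 4290 CPM in ANTA. That sum moved with the group but was mostly Krt19, at 2324 to 2866 CPM over all libraries. Krt7 lay at 1103 to 1219 CPM and was not called. The part of these markers in the other results was not tested. Spp1, osteopontin, which osteocytes and bile duct cells both make, gave -0.19 and was lost without ANTA-NC 2, ANTA 2 or ANTA 3 (adjusted p up to 0.143). The summed levels of the 10 macrophage, 10 endothelial and 11 stellate cell or fibroblast markers listed were at most 42.2, 8.04 and 7.30 CPM in any vesicle library, and none of the 2, 4 and 3 that could be tested was called.

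Some of the largest changes lay outside the lists. Fibcd1, a receptor gene for acetylated compounds, had the largest rise among the genes eligible by size (called, separate between the groups and at least 2 CPM on average), from 0.760, 0.802 and 1.27 CPM in ANTA-NC to 3.91, 3.51 and 3.02 CPM in ANTA (1.87, SE 0.25, adjusted p = 4.43e-05). Shc2, an adaptor gene of receptor tyrosine kinases, had 1.46, 1.76 and 1.37 CPM in ANTA-NC and 2.70, 4.39 and 4.64 CPM in ANTA (1.35, SE 0.24). Mrc1, the mannose receptor gene of macrophages and sinusoidal endothelium, had 44.8, 43.2 and 36.4 CPM in ANTA-NC, 84.0, 57.3 and 60.8 CPM in ANTA and 36.4 to 43.4 CPM in Veh (0.70, SE 0.11, adjusted p = 0.000167). All 3 were separate between the groups, and ANTA 1 stood highest for Mrc1. Of the listed macrophage markers, the leukocyte gene Ptprc had at most 5 counts in any library and Clec4f had 0. Others were present, with Cd14 at 23.3 to 28.3 CPM and Cd68 at 7.05 to 14.7 CPM over all libraries. Between ANTA and ANTA-NC Cd14 gave 0.04 and Cd68 0.34, neither called.

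Gja1, which encodes the gap junction protein connexin 43 (chr10:56377330-56402513, plus strand), had 42.0, 40.9 and 45.4 CPM in ANTA-NC, 67.7, 66.5 and 68.8 CPM in ANTA and 40.4 to 45.8 CPM in Veh (0.66, SE 0.06, adjusted p = 1.99e-07). Hmga1, an architectural chromatin protein gene, had 183, 191 and 183 CPM in ANTA-NC and 288, 267 and 275 CPM in ANTA (0.58, SE 0.04, adjusted p = 7.23e-09). It shares 69.1% of its 50-base stretches with Hmga1b, which changed by 0.66 (SE 0.07), so both are uncertain. Prl2c3 (1.30, SE 0.20) belongs to a family of near-identical proliferin genes and is uncertain too. Other rises were those of Col6a3, a collagen VI gene, at 0.83 (SE 0.21; not called in limma on log2(FPKM + 1) or without the libraries numbered 1), Unc13d, which primes secretory granules, at 0.79 (SE 0.14), Lgr6, a receptor gene for R-spondins, at 0.71 (SE 0.17), Mcpt8, a granule protease gene, at 0.69 and H2-M9 at 0.64. Irgc1 (0.76) was lost without ANTA-NC 1, ANTA-NC 2 or ANTA 2 (adjusted p up to 0.106), Ggt7 (0.74) without ANTA-NC 2 or ANTA 1 (up to 0.0809) and Dapk2, a death-associated kinase gene (0.72), without ANTA-NC 1, ANTA-NC 3, ANTA 1 or ANTA 2 (up to 0.163).

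Kcnj16, a potassium channel gene (chr11:110968033-111027968, plus strand), had 107, 102 and 92.1 CPM in ANTA-NC, 57.9, 56.8 and 57.8 CPM in ANTA and 101 to 105 CPM in Veh (-0.81, SE 0.05, adjusted p = 3.75e-09). Palmd, the palmdelphin gene, had 6.08, 5.34 and 5.39 CPM in ANTA-NC and 2.47, 3.10 and 2.81 CPM in ANTA (-1.0, SE 0.16), and Itga1, a collagen-binding integrin gene, changed by -0.78 (SE 0.15). In these genes the ANTA libraries stood below both other groups. Il17re, a receptor gene for interleukin 17C, had 3.20, 2.67 and 3.15 CPM in ANTA-NC, 1.67, 1.41 and 1.40 CPM in ANTA and 1.38 to 2.12 CPM in Veh (-1.01, SE 0.23), so ANTA and Veh overlapped. Snap25, a SNARE gene of exocytosis, gave -0.95 (SE 0.21), Fam171b -0.93 (SE 0.19), Nup210l -0.86 (SE 0.18) and Mtmr7, a phosphoinositide phosphatase gene, -0.83 (SE 0.17). Dmpk (-0.82) was lost without ANTA-NC 2, ANTA-NC 3 or ANTA 1 (adjusted p up to 0.104). Cmc4 (-0.81), which shares exons with another gene and is uncertain, was lost without ANTA-NC 1, ANTA-NC 2, ANTA 1 or ANTA 2 (up to 0.0632).

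Among abundant genes that went down, Anxa3, an annexin gene, had 1491, 1465 and 1442 CPM in ANTA-NC and 1297, 1264 and 1317 CPM in ANTA (-0.18, SE 0.03). Slc16a12, a creatine transporter gene, had 325, 319 and 312 CPM in ANTA-NC and 248, 256 and 251 CPM in ANTA (-0.34, SE 0.03, adjusted p = 8.2e-07). Xkr9 changed by -0.71 (SE 0.07) and Cd2ap, an actin adaptor gene of the slit diaphragm and endocytosis, by -0.24 (SE 0.03). The groups were separate for each of these genes.

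**Figure D5:**
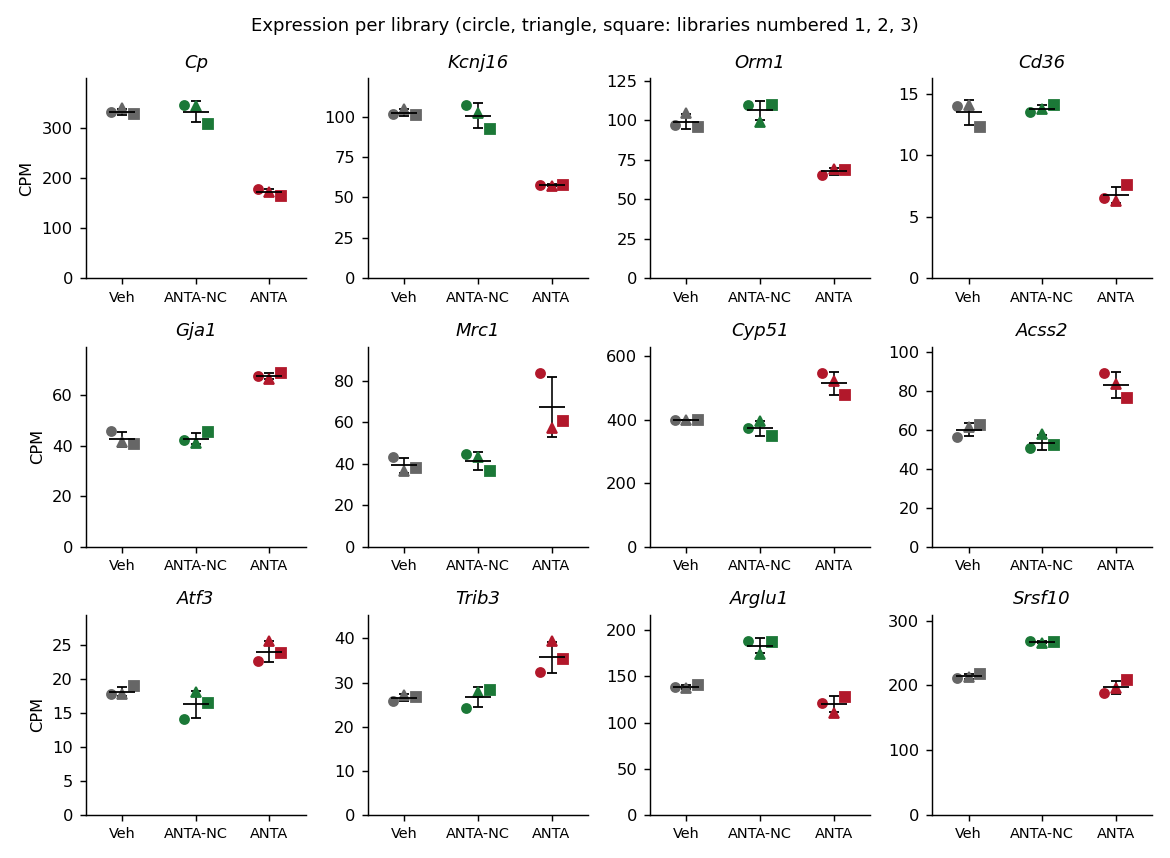
CPM of 12 genes in each of the 9 libraries, grouped as Veh, ANTA-NC and ANTA, with a panel per gene and axes that start at 0. Circles, triangles and squares are libraries 1, 2 and 3, and lines with bars give the mean ± SD (n = 3). Cp, Kcnj16, Orm1 and Cd36 are low in ANTA alone, Gja1, Mrc1, Cyp51, Acss2, Atf3 and Trib3 are high in ANTA alone, and Arglu1 and Srsf10 are high in ANTA-NC.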

How the data were processed

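RNA from AML12 cells was sequenced in 9 libraries, 3 in each of 3 groups, taken from the treatment labels. For each library the authors deposited a table of raw read counts per gene beside FPKM values, which equalled the count divided by total and gene length. The submitters' processing notes name HTSeq and the mm10 build. No aligner, version or strand setting is given in these sources, so reads of a gene and an antisense partner cannot be told apart.

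All 9 libraries (17298814 to 21737643 counts) entered one fit of the deposited counts in edgeR 4.0.16 (R 4.3.3): filterByExpr (smallest count 10, total 15), TMM scaling, quasi-likelihood test, 1 mean per group, Benjamini-Hochberg adjustment over 11562 genes, threshold 0.05. CPM is per effective (TMM-scaled) library size. The fit was tested on simulated data. Alternatives used DESeq2 1.42.0, limma 3.58.1 on log2(FPKM + 1), other scalings and filters, a GC and length offset, a replicate block and leaving out libraries.

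Genes named were, among called genes of at least 2 CPM on average whose groups did not overlap (predicted genes and pseudogenes left out), the 15 largest rises and falls and the 10 each with the smallest p or largest CPM difference. To these came up to 6 called members per list by p (2 where none was called) and up to 10 genes each way with an 8-base seed match. Not all are printed, and some are not reported here. Members and lists were chosen with earlier results of these data known. A gene is called uncertain where at least 25% of its 50-base stretches or exon bases are shared with another GENCODE M21 gene. Seed matches were read from the longest GENCODE M21 3′ UTR, and microRNAs and promoters from RefSeq (GRCm38.p6). No sample of another series was used.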

Additional observations from a re-analysis of the deposited data

How the results depend on the processing

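No gene was called in the opposite direction in any alternative run. The 1698 calls (878 higher, 820 lower) became 103 (37 higher, 66 lower) with a fold of at least 1.5 and 776 (387 and 389) at an adjusted p under 0.01. Higher calls numbered 530 with library size alone, 392 in limma on log2(FPKM + 1) and 1472 with the GC correction and replicate block together. In limma on log2(FPKM + 1), 13 sterol, 8 glycolysis, 16 ribosomal protein and 2 tRNA synthetase genes were higher, and Eef1a1, Herpud1, Pgk1 and Zfp652, held in every other alternative, were not called. With library size alone 29 ribosomal protein and 5 tRNA synthetase genes were higher. Synthetase genes numbered 13 with the replicate block and 14 with block and GC correction. Leaving out 1 library at a time gave 1005 to 1635 calls (474 to 844 higher, 531 to 820 lower), with 13 to 19 sterol, 28 to 47 ribosomal protein and 2 to 9 tRNA synthetase genes higher. DESeq2 called 776 higher and 701 lower. Libraries of the same number deviated together with correlations of 0.245, 0.123 and 0.089 between ANTA and ANTA-NC. With Veh they were 0.0285 to 0.159 for ANTA and 0.0375 to 0.194 for ANTA-NC, all positive. The labels do not say that the numbers pair libraries, so the block was run only as an alternative. Whether the number marks a shared batch was not tested. The replicate block gave 2427 calls (1261 higher, 1166 lower). In simulated data of this design 50 genes each were changed by a fold of 1.2, 1.5, 2 and 4. The fit recovered 24 (48%), 42 (84%), 47 (94%) and 48 (96%) of them. It made 11 false calls, a total that stands against the recovered genes of all fold sizes together. The 11496 genes tested there include the changed ones. Simulated libraries were drawn independently, and no GC trend or effect of library number was put in. Without the libraries numbered 1, an alternative chosen after seeing the data, 1421 genes were called.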
